A study of Mus musculus with 6 samples.

Results

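Major histocompatibility complex (MHC) class II molecules are cell-surface proteins that show peptides from endosomes to CD4 T cells. Each is a pair of an alpha and a beta chain, and the invariant chain Cd74 occupies the peptide groove until the pair reaches the endosome. The non-classical pair H2-DM then exchanges the remaining fragment of Cd74 for peptides, and the pair H2-DO restrains H2-DM. Ciita, the class II transactivator, switches these genes on together by docking on proteins bound to shared promoter boxes, and it is known from dendritic cells, B cells, macrophages and cells exposed to interferon gamma. The genes followed here were the classical chains H2-Aa, H2-Ab1 and H2-Eb1, the invariant chain Cd74, the DM and DO chains H2-DMa, H2-DMb1, H2-Oa and H2-Ob, and Ciita. Every probe set whose platform annotation gives one of these symbols alone was taken. That gave 16 probe sets for 8 of the 9 genes, out of 45037 probe sets and 18193 genes measured. H2-DMb1 had no probe set of its own, since 2 probe sets are annotated to both H2-DMb1 and its neighbour H2-DMb2. A further probe set is annotated to H2-Ob and Gm20506 together. These 3 shared probe sets are described apart.

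RNA came from 6 sorted samples of MLL-AF9 LGMP, a leukaemic progenitor population of mouse bone marrow, each hybridised to 1 Affymetrix array. The WT group (n = 3, labelled male) carried EF1αwt/wt together with ROSAwt/CreERT2, and the N1-IC group (n = 3, labelled female) carried EF1αwt/lsl-N1-IC together with ROSAwt/CreERT2, with the intracellular domain of Notch1 in the widely active EF1α locus. Genotype and sex coincide and cannot be told apart in any comparison here. In both groups cKit+ cells infected with MLL-AF9-IRES-YFP were transplanted, 50000 per mouse together with 250000 wild-type support marrow cells, into lethally irradiated wild-type recipients 12 weeks old. At 4 weeks all mice received 2 injections of tamoxifen (0.2 mg per g body weight), and marrow was taken 6 days after the last. The sort kept lineage-negative, cKit+, Sca1-, YFP+, CD34+ and FcgRII/III+ cells, and 5 ng of RNA was amplified. How many mice gave cells to a sample is not stated, so each p-value reflects sample-to-sample spread, which may be technical in part.

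The labelled cell type was checked against a list of sort gate and granulocyte-macrophage progenitor genes. All of its 11 measured genes, among them Kit, Cd34, Fcgr3, the myeloperoxidase gene Mpo and the elastase gene Elane, lay above the array medians of 5.63 to 5.67 log2 units, and the list mean was 12.32 to 12.51 on the 6 arrays. WT replicates 1 and 2 stood apart in other lists. The late granulocyte list averaged 6.48 in WT replicate 1 and 8.85 to 9.64 elsewhere, and the erythroid list averaged 9.34 in WT replicate 2 and 5.66 to 6.69 elsewhere. Values below are log2 intensities, in which a difference of 1 is a doubling, and the level of one probe set says nothing about that of another.

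The promoters of class II genes share an X box, bound by the RFX complex, and a Y box, an inverted CCAAT box bound by NF-Y, and Ciita joins the proteins on both. RefSeq promoter windows of assembly GRCm38.p6 run from 250 bases before to 50 bases after a gene start. Those of 6 of the 9 genes are described here. No window was at hand for H2-Ab1 or Ciita. The promoter of Cd74 was left out of this description, and whether it holds the boxes is not reported here. The stretches with both boxes are printed because Ciita is known to reach class II genes by this box pair. With the letters used here it was found in 5 of these 6 genes, and binding of Ciita was not measured. Each line gives the stretch from 6 bases before the first box to 6 bases after the second, 5′ to 3′ on the strand of the gene, with the letters matching CNNGNAAC (taken here for the X box) and GATTGG (the Y box) in capitals.
H2-Aa: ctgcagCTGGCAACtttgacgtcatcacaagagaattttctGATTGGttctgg
H2-Eb1: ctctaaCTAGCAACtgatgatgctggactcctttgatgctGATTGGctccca
H2-DMb1: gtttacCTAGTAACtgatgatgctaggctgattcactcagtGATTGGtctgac
H2-Oa: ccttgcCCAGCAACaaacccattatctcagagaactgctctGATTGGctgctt
H2-Ob: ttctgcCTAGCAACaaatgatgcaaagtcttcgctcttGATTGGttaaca

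The windows lie at chr17:34287774-34288073 (H2-Aa, minus strand), chr17:34305617-34305916 (H2-Eb1), chr17:34152941-34153240 (H2-DMb1), chr17:34092129-34092428 (H2-Oa) and chr17:34238655-34238954 (H2-Ob), the last 4 on the plus strand. From the start of one box to the start of the other were 35, 34, 35, 35 and 32 bases, and the Y box began at -49, -60, -62, -44 and -58 relative to the gene start. H2-DMa has 2 windows. One holds the X letters alone and the other holds both, but neither holds the pair at the spacing given next. The letters and the spacing of 25 to 45 bases were written from these windows, so their match here is by construction. Over all 32851 RefSeq promoter windows, searched on both strands, 39.1% held CNNGNAAC, 16.1% held GATTGG and 0.262% (86 windows) held the first followed by the second at that spacing, where the boxes do not overlap.

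N1-IC was compared with WT to ask whether the class II genes differed between the genotypes. The classical chain H2-Aa and the invariant chain Cd74 had higher means in N1-IC, with no overlap of the groups, while the DM and DO chains had lower means and Ciita differed little. None of these differences passed the test. In limma's fit over all probe sets 0 of the 16 probe sets had a Benjamini-Hochberg adjusted p under 0.05, and the smallest was 0.521. By the mean 9 were higher and 7 lower in N1-IC, where 50.5% of all probe sets were higher. Over all 45037 probe sets 4 (0.00888%) passed, all lower in N1-IC. The only one of them with a gene symbol was Eif2s3y, with means of 10.97 in WT (labelled male) and 3.22 in N1-IC (labelled female). At an unadjusted p under 0.05 there were 6 of the 16, namely 3 of H2-Aa and 1 each of Cd74, H2-Eb1 and H2-DMa, where the share over all probe sets was 7.7%. The groups did not overlap for 5 of the 16, 4 with higher values in N1-IC (3 of them of H2-Aa) and 1 with lower values. Over all probe sets 14.4% had groups that did not overlap, 7.4% higher and 7.02% lower in N1-IC. The probe sets of a gene share their target and are not independent. The median log2 fold change was 0.14 over the 16 probe sets and 0.0025 over all, and the median of its absolute value was 0.44 against 0.14. In a sorted population, a changed share of cells that carry such an RNA and a changed amount of RNA per cell cannot be told apart.

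**Figure D1:**
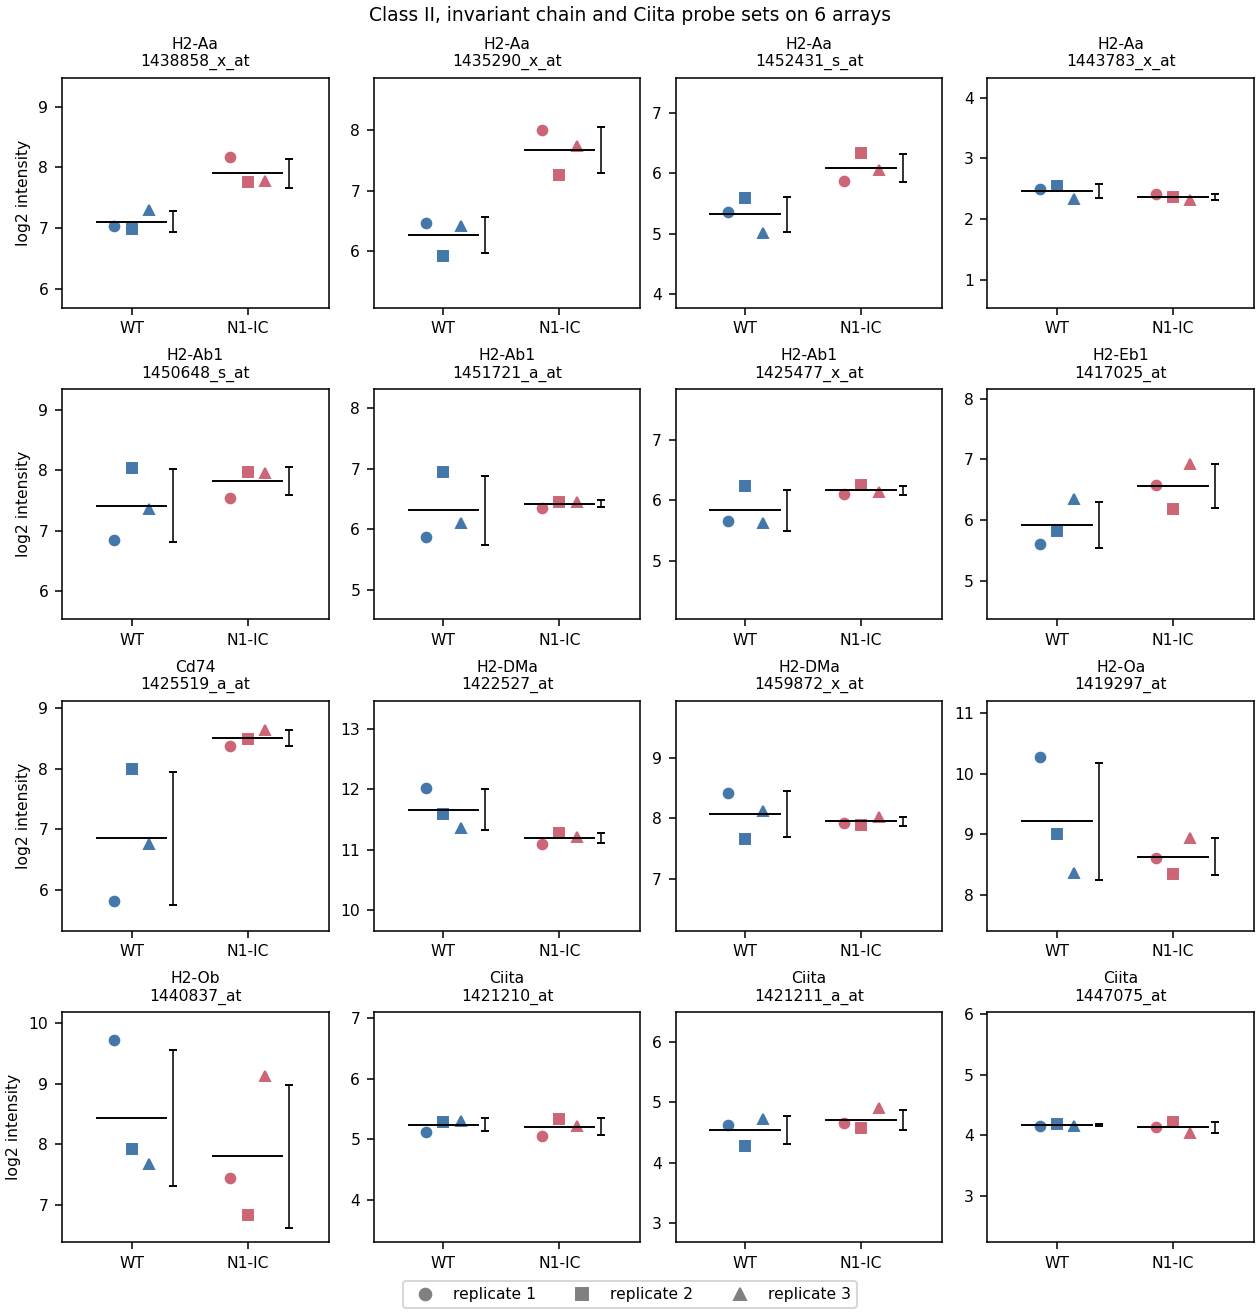
Log2 intensity (vertical axis, in log2 units, the same span in every panel) of the 16 probe sets in WT and N1-IC samples, with a marker shape for each replicate, a line at the group mean and a bar of 1 SD on either side (n = 3). The groups are apart for 3 of the 4 H2-Aa probe sets, for Cd74 and for 1 H2-DMa probe set, and WT replicate 1 is the lowest sample for Cd74 and the highest for H2-Oa and H2-Ob.

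H2-Aa encodes the alpha chain that pairs with the product of H2-Ab1. Its brightest probe set (1438858_x_at) lay at 7.02, 6.99 and 7.30 in the WT samples and at 8.18, 7.76 and 7.77 in the N1-IC samples. Every N1-IC sample was above every WT sample. The means were 7.10 ± 0.17 and 7.90 ± 0.24 (SD, n = 3), a log2 fold change of 0.80 ± 0.16 (standard error) or 1.74-fold, with a 95% interval of 0.41 to 1.18 and a limma adjusted p of 0.555. Its second probe set (1435290_x_at) showed the larger difference, from 6.46, 5.92 and 6.42 in WT to 8.0045, 7.26 and 7.74 in N1-IC. That was a log2 fold change of 1.40 ± 0.24, or 2.64-fold, and the smallest adjusted p of the 16 (0.521, unadjusted p of 0.000928). The third (1452431_s_at) lay at 5.36, 5.58 and 5.02 in WT and at 5.88, 6.34 and 6.05 in N1-IC, which is 0.77 ± 0.19 higher on the log2 scale, again without overlap, though its WT samples lay below the array medians. The fourth (1443783_x_at) lay at 2.32 to 2.55 on all arrays, below their lower quartiles of 3.86 to 3.92, and had a log2 fold change of -0.089. By Affymetrix naming the ending x marks probe sets with probes that can bind related sequences, and the ending s those that match several transcripts. Whether the H2-Aa probe sets also bind other class II chains was not tested.

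H2-Ab1, the beta chain partner of H2-Aa, had a smaller difference, and its groups overlapped in all 3 probe sets. The brightest (1450648_s_at) was at 6.84, 8.04 and 7.36 in WT and at 7.55, 7.96 and 7.95 in N1-IC. The log2 fold change was 0.41 ± 0.31 (limma adjusted p of 0.722). WT replicate 2 was its highest sample and WT replicate 1 its lowest. WT replicate 2 was also the highest WT sample of the other probe sets, at 5.88, 6.95 and 6.11 in WT for 1451721_a_at and at 5.66, 6.23 and 5.63 for 1425477_x_at, with N1-IC at 6.36 to 6.46 and 6.11 to 6.25. Their log2 fold changes were 0.11 ± 0.28 and 0.32 ± 0.18. The interval of the brightest probe set, -0.35 to 1.16, holds both no difference and the value of H2-Aa. Leaving out WT replicate 1 brought its log2 fold change to 0.12, and that of 1451721_a_at was -0.11. Without WT replicate 2 the brightest probe set had 0.72, 1451721_a_at had 0.43 and 1425477_x_at had 0.52 (unadjusted p of 0.00365, adjusted p of 0.703 in limma).

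H2-Eb1 is the beta chain of the second classical pair, whose alpha chain gene H2-Ea is annotated as a transcribed pseudogene in the RefSeq reference strain. H2-Eb1 was at 5.60, 5.82 and 6.34 in WT and at 6.57, 6.19 and 6.92 in N1-IC. The groups overlapped by a single pair of samples, WT replicate 3 above N1-IC replicate 2. The log2 fold change was 0.64 ± 0.26 (95% interval 0.01 to 1.26, adjusted p of 0.644 in limma). H2-Ea itself lay at 4.41 to 4.65 by its brightest probe set, below the array medians on all 6 arrays, with a log2 fold change of 0.0031 ± 0.11. H2-Eb2, a further beta chain gene, lay at 4.92 to 5.18, also below the medians, with 0.12 ± 0.097.

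Cd74, the invariant chain that escorts every class II pair, had the largest difference among the 16 probe sets. It was at 5.81, 7.99 and 6.75 in the WT samples and at 8.38, 8.49 and 8.63 in the N1-IC samples. All N1-IC samples were above all WT samples, and the spread was much wider in WT (SD 1.09) than in N1-IC (SD 0.129). The log2 fold change was 1.65 ± 0.52, or 3.14-fold, with a 95% interval of 0.40 to 2.91 and an adjusted p of 0.639. WT replicate 2 lay 0.39 below the lowest N1-IC sample, and WT replicate 1 lay 2.57 below it. Without WT replicate 1 the log2 fold change was 1.13, and without WT replicate 2 it was 2.22 (unadjusted p of 0.000594, adjusted p of 0.549 in limma). Over the 17 alternative settings its adjusted p ran from 0.42 to 0.857.

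**Figure D2:**
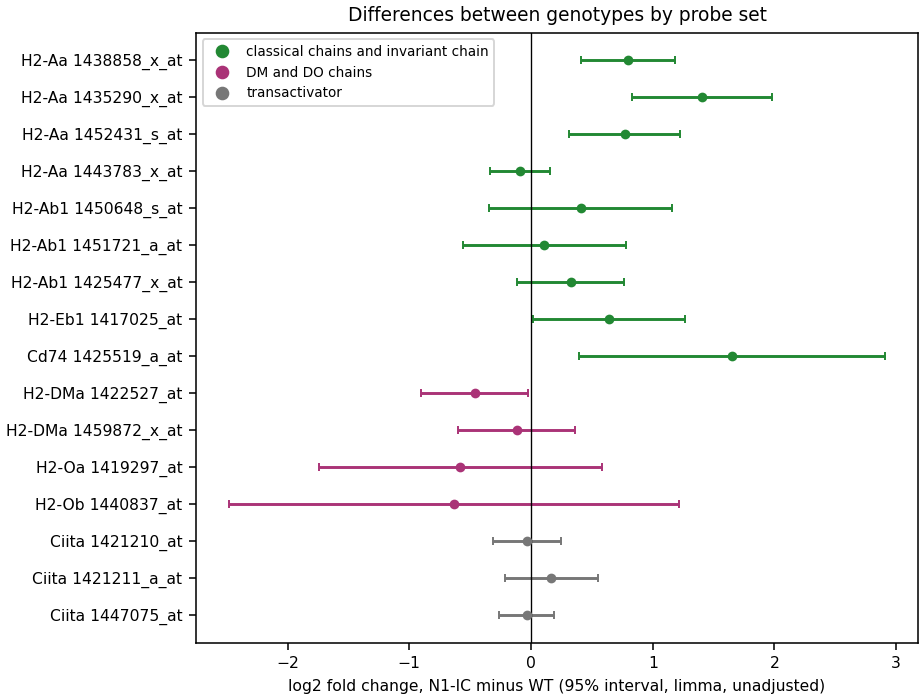
Log2 fold change of N1-IC over WT for each of the 16 probe sets (horizontal axis, log2 units) with its unadjusted 95% interval from limma, coloured by role. The intervals of 3 H2-Aa probe sets, of H2-Eb1 and of Cd74 lie above 0, that of H2-DMa 1422527_at lies below 0, and the other 10 include 0.

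The DM and DO chains, which edit the peptides that class II pairs carry, had lower means in N1-IC. H2-DMa, the DM alpha chain, was at 12.02, 11.60 and 11.36 in WT and at 11.10, 11.27 and 11.22 in N1-IC by its brightest probe set (1422527_at). Every N1-IC sample was below every WT sample, the nearest pair being WT replicate 3 and N1-IC replicate 2. Its log2 fold change was -0.46 ± 0.18 (95% interval -0.90 to -0.022, adjusted p of 0.644 in limma). The other H2-DMa probe set (1459872_x_at) overlapped, with WT samples at 7.67 to 8.42, N1-IC samples at 7.89 to 8.03 and a difference of -0.12 ± 0.20. Without WT replicate 1 the values of these probe sets were -0.28 and 0.058.

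H2-Oa, the DO alpha chain, was at 10.27, 9.01 and 8.36 in WT and at 8.61, 8.34 and 8.94 in N1-IC. H2-Ob, the DO beta chain, was at 9.73, 7.92 and 7.67 in WT and at 7.45, 6.84 and 9.12 in N1-IC. Both genes were highest in WT replicate 1, and the other samples of the groups overlapped. The log2 fold changes were -0.58 ± 0.48 for H2-Oa and -0.63 ± 0.76 for H2-Ob, with adjusted p values of 0.736 and 0.811 in limma. Without WT replicate 1 they were -0.051 and 0.0097, so the lower means of these DO chain probe sets rested on that sample. Without N1-IC replicate 3 they were -0.74 and -1.29. Among the N1-IC samples replicate 3 was the highest for both. H2-DO is known mainly from B cells and some dendritic cells. In the B lineage list the antigen receptor gene Cd79a, Ms4a1, Pax5, Ebf1 and Blnk lay below the median of every array. Above the medians, Cd79b lay at 10.92 to 11.47 and Vpreb1 at 5.90 to 7.62.

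The shared probe sets gave values on the same side. The 2 probe sets annotated to H2-DMb1 and H2-DMb2 together had log2 fold changes of -0.37 ± 0.14 and -0.12 ± 0.15. The first (1449580_s_at) lay at 10.47, 10.19 and 9.98 in WT and at 9.86, 9.84 and 9.82 in N1-IC, with no overlap and an adjusted p of 0.639 in limma. The probe sets annotated to H2-DMb2 alone had values from -0.12 to 0.068, so which DM beta chain gene the first one follows is unknown. The probe set shared by H2-Ob and Gm20506 was at 8.46, 7.63 and 6.85 in WT and at 6.69, 6.70 and 7.18 in N1-IC. Its log2 fold change was -0.79 ± 0.40, and WT replicate 1 was again the highest sample.

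Ciita varied little between samples. Its brightest probe set (1421210_at) lay at 5.13, 5.30 and 5.31 in WT and at 5.06, 5.34 and 5.23 in N1-IC. Its log2 fold change was -0.035 ± 0.12, with a 95% interval of -0.31 to 0.24. The other probe sets lay at 4.27 to 4.90 (1421211_a_at) and 4.05 to 4.22 (1447075_at), with 0.17 ± 0.16 and -0.036 ± 0.092. All 3 were below the median on each of the 6 arrays and above the lower quartile. No detection calls were used, and whether such dim values stand above background is unknown. They do not show that the transactivator was equal in the groups.

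WT replicate 1 held opposite ends of the family. By the brightest probe sets it was the lowest of the 6 samples for H2-Ab1, H2-Eb1 and Cd74 and the highest for H2-DMa, H2-Oa and H2-Ob. The mean of the 3 classical chains and Cd74 was 6.32, 7.21 and 6.94 for WT replicates 1 to 3 and 7.67, 7.60 and 7.82 for N1-IC. The mean of H2-DMa, H2-Oa and H2-Ob was 10.67, 9.51 and 9.13 for WT and 9.06, 8.82 and 9.76 for N1-IC. The N1-IC mean differed from the WT mean by 0.87 for the first set and by -0.56 for the second, and by 0.62 and -0.11 when WT replicate 1 was left out. The mean of the first set was higher in every N1-IC sample than in every WT sample, while that of the second set overlapped. The late granulocyte list was also lowest in WT replicate 1, with Camp at 9.11 there against 13.01 to 13.98 elsewhere, and its part in these values was not tested.

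**Figure D3:**
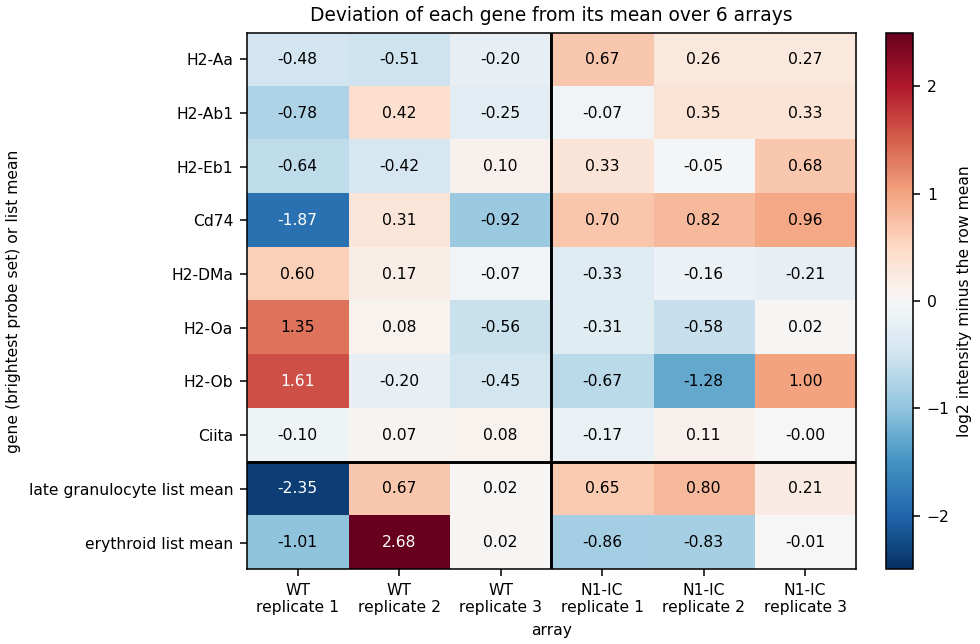
Log2 intensity of each gene (brightest probe set) minus its own mean over the 6 arrays, with the same for the means of the late granulocyte and erythroid lists. Columns are arrays, red is above and blue below the row mean. WT replicate 1 is blue for the classical chains and Cd74 and red for H2-DMa, H2-Oa and H2-Ob, and Ciita stays within 0.17 of its mean.

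The class II genes other than Cd74 and Ciita lie in the same region of chromosome 17, with other genes among them, so the differences were also read in gene order. From H2-Oa to H2-Eb2, 13 of 15 annotated genes were measured under their own name. The first 9 in order, H2-Oa, Brd2, H2-DMa, H2-DMb2, Psmb9, Tap1, Psmb8, Tap2 and H2-Ob, had lower means in N1-IC, from -0.63 to -0.055. The last 4, H2-Ab1, H2-Aa, H2-Eb1 and H2-Eb2, had higher means, from 0.12 to 0.80. These are the values of each gene's brightest probe set. Over all their probe sets 13 of 17 were lower for the first 9 genes and 8 of 9 higher for the last 4. Of the first 9 genes 7 had lower means without WT replicate 1, with H2-Ob at 0.0097, H2-DMb2 at 0.014 and H2-Oa at -0.051. Without N1-IC replicate 2 there were 8 such genes, with H2-DMb2 at 0.089. The last 4 stayed above 0 whichever array was left out, a check chosen after the values were seen. Psmb9 and Psmb8 encode immunoproteasome subunits and Tap1 and Tap2 the transporter that supplies class I molecules with peptides. Their log2 fold changes were -0.24 ± 0.10, -0.26 ± 0.13, -0.43 ± 0.20 and -0.41 ± 0.23, and none of the 13 passed the adjusted threshold. Over all genes 52.6% had a higher mean in N1-IC by the brightest probe set. Neighbouring genes are not independent, and the order was looked at after the values were known.

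**Figure D4:**
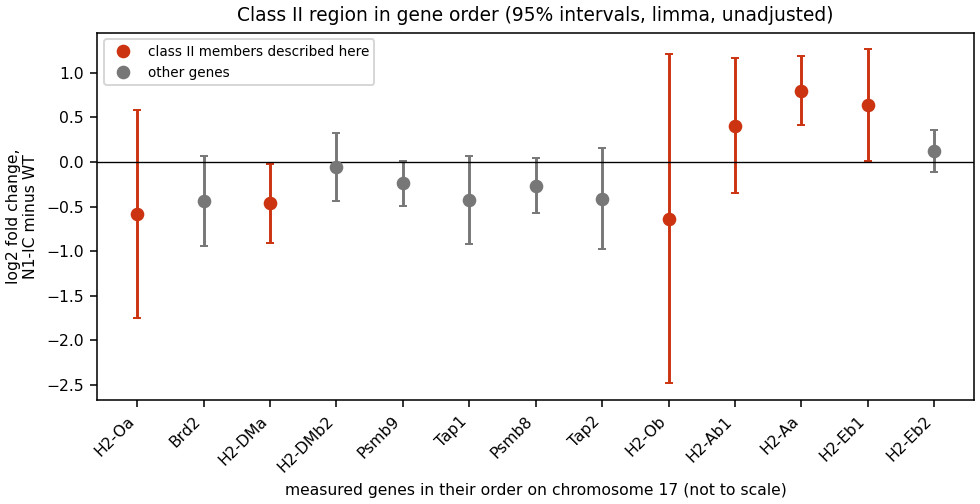
Log2 fold change of N1-IC over WT (vertical axis, log2 units, 95% intervals from limma) of the 13 measured genes from H2-Oa to H2-Eb2 in their order on chromosome 17, with equal spacing instead of distance. Each point is the brightest probe set of the gene. The 9 genes up to H2-Ob lie below 0 and the 4 from H2-Ab1 on lie above 0, most intervals include 0, and without WT replicate 1 H2-Ob and H2-DMb2 were just above 0.

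The genes of the proteins that bind the promoter boxes gave no call. Of the 7 genes of the X and Y box complex 0 passed (the share over all genes was 0.0055%), 6 had higher and 1 had lower means, and the median log2 fold change was 0.073 against 0.012 over all genes. The RFX subunits Rfx5, Rfxank and Rfxap had 0.086 ± 0.12, 0.15 ± 0.16 and -0.20 ± 0.16. The NF-Y subunits Nfya, Nfyb and Nfyc had 0.04 ± 0.11, 0.073 ± 0.099 and 0.018 ± 0.084, and Creb1, which binds beside RFX, had 0.20 ± 0.13. The groups of all 7 overlapped.

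Upstream of Ciita, 0 of 11 measured genes passed, 4 had higher and 7 lower means, and the median was -0.062. The transcription factor gene Irf4 was at 5.47, 6.72 and 5.96 in WT and at 4.58, 5.27 and 4.96 in N1-IC. All its N1-IC samples were below all WT samples. Its log2 fold change was -1.11 ± 0.34 (adjusted p of 0.639, limma). Ifngr2, a chain of the interferon gamma receptor, had WT samples at 8.03 to 8.54 and N1-IC samples at 7.84 to 8.01, with -0.45 ± 0.16 and no overlap. These were 2 of 11 genes without overlap, where 14.8% of all genes had none. The related factor gene Irf8 had -0.48 ± 0.21, with overlap. Ifngr1, Jak1, Jak2, Irf1, Irf2 and Spi1 lay between -0.12 and 0.058. Prdm1, a repressor of Ciita, had 0.045 ± 0.19, and the signalling inhibitor gene Socs1 had 0.24 ± 0.17. Prdm1 and Socs1 lay below the median on every array, so whether they stand above background is unknown.

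Among genes that handle antigen and the invariant chain in endosomes 0 of 7 passed, and the median was -0.11. The thiol reductase gene Ifi30 was at 11.38, 12.28 and 11.12 in WT and at 11.11, 11.23 and 10.58 in N1-IC, and its log2 fold change was -0.62 ± 0.33 with overlap. Sppl2a, whose protease cuts the last membrane stub of Cd74, had 0.24 ± 0.14, and its N1-IC samples (10.48 to 10.93) were just above those of WT (10.38 to 10.46). Cathepsin S, which trims Cd74, had -0.39 ± 0.34 (Ctss). In the class II turnover and costimulation list 0 of 7 passed. Marchf1, a ubiquitin ligase that removes class II from the surface, was at 5.09 in WT replicate 1 and at 7.37 to 7.97 on the other 5 arrays, with 0.89 ± 0.73, and Marchf8 had -0.098 ± 0.097.

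Class I genes served as the neighbouring presentation pathway. Of 12 measured genes 0 passed, 3 had higher and 9 lower means, and the median was -0.11. By the rule of the smallest unadjusted p, Psmb9 (12.02, 11.92 and 11.85 in WT and 11.56, 11.75 and 11.75 in N1-IC) and Psmb8 are named, both given above. The groups did not overlap for Psmb9 and overlapped for the other 11 genes, where 14.8% of all genes had groups without overlap.

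Markers of cells known to carry class II were measured because the sort could hold such cells. In the dendritic list 6 of 11 genes (Zbtb46, Xcr1, Batf3, Cd209a, Ccr7 and Ccr9) lay below the median on every array. Cst3 (13.7 to 13.8), Bst2 (9.73 to 10.41) and Flt3 (6.73 to 7.76) lay above it on every array. The dendritic list mean ran from 6.08 to 6.16 in WT and from 6.10 to 6.26 in N1-IC. Bst2 and Itgax had the smallest unadjusted p values of this list, with -0.38 ± 0.16 and 0.73 ± 0.33. Itgax, which encodes the integrin CD11c, was at 4.86, 5.31 and 4.68 in WT and at 5.34, 5.32 and 6.38 in N1-IC. In the B lineage list 5 of 9 genes lay below the median on every array, while Cd79b and Vpreb1 lay above it on every array. The mean of this list ran from 5.44 to 5.80 in WT and from 5.66 to 6.14 in N1-IC. Cd22, a sialic acid receptor gene, was at 4.35, 6.08 and 5.95 in WT and at 6.62, 7.43 and 8.56 in N1-IC, with 2.08 ± 0.64 and no overlap, and Ms4a1 had 0.24 ± 0.16.

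The monocyte and macrophage list averaged from 7.52 to 7.68 in WT and from 7.40 to 7.70 in N1-IC, with 4 of 11 genes (C1qa, C1qc, Mertk and Spic) below the median on every array. Of the 11 genes 7 had higher and 4 lower means, with a median log2 fold change of 0.061, and 3 had groups without overlap. Over all genes 14.8% had groups without overlap. The genes of the complement C1q chains all had higher means in N1-IC, with 0.45 ± 0.19 (C1qa), 0.74 ± 0.28 (C1qb) and 0.40 ± 0.14 (C1qc), the first and the last without overlap. The adhesion molecule gene Vcam1 had -1.17 ± 0.37, also without overlap. The monocyte receptor gene Csf1r lay at 10.90 to 12.00 on all arrays, and Adgre1, Cd68, Cx3cr1, Ccr2 and Vcam1 also lay above the median on every array. The T and NK list had 0 of 7 genes called and averaged from 5.70 to 6.13 in WT and from 5.53 to 5.83 in N1-IC, with Cd3g at 0.14 ± 0.11 and Cd8a at 0.18 ± 0.14. In the late granulocyte list all 7 measured genes had higher means in N1-IC, and the median log2 fold change was 0.87. The gelatinase gene Mmp9, with 2.71 ± 0.84, was the only one whose groups did not overlap, and Lcn2 had 0.87 ± 0.58. Without WT replicate 1 the list had 4 higher and 3 lower means and a median of 0.19. In the erythroid list 6 of 7 genes had lower means, and the median was -0.87. Klf1, without overlap, and Ermap had -1.72 ± 1.04 and -2.05 ± 1.45. Without WT replicate 2 the erythroid list had 4 lower and 3 higher means and a median of -0.12. In the sort gate list Cd34 had -0.72 ± 0.33, without overlap of the groups, and Fcgr3 had -0.25 ± 0.13. In all these lists 0 genes passed in limma. The part of such cells in the class II values was not tested.

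The genes whose pattern over the 6 arrays was most like that of the classical chains and Cd74 were sought by distance. Each gene's values were centred on its own mean, and the root mean square distance to the mean profile of H2-Aa, H2-Ab1, H2-Eb1 and Cd74 was taken. The nearest was Fam83f at 0.10 log2 units, followed by Dusp6 (0.156), Rdh12 (0.161), Ccdc39 (0.179), Galm (0.181), BC016579 (0.188), Gch1 (0.203) and Apobec2 (0.204). The 4 class II genes themselves lay at 0.298 to 0.552 from their mean profile. The 8 genes were picked as the nearest of all measured genes, so their smaller distances follow from that choice. Dusp6, a phosphatase gene of the MAP kinase pathway, was at 10.45, 11.23 and 10.99 in WT and at 11.46, 11.90 and 12.00 in N1-IC. All 8 had log2 fold changes between 0.54 and 0.96, fixed by the choice of the profile, and an adjusted p of 0.639 in limma.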

How the data were processed

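The values deposited by the authors are probe set intensities on a linear scale, and the method is RMA, per the submitters' processing notes (its version is not stated there). All arrays shared nearly the same distribution as deposited, with sorted values within 0.103 log2 units of the mean array and medians of 49.6 to 51.0 intensity units. Such scaling makes every difference a relative one within an array. Here log2 was taken with no offset. After leaving out 64 Affymetrix controls, 45037 probe sets were tested, of which 34945 had 1 gene symbol. N1-IC was compared with WT in R 4.3.3 with limma 3.58.1 (lmFit, eBayes), Benjamini-Hochberg adjusted over all probe sets and called under 0.05. On simulated arrays of 45037 probe sets, 35.6% of probe sets changed by 1 on the log2 scale and 86.8% of those changed by 2 were recovered. The planted changes ran up to 6, the noise was independent between probe sets, and no array was made to stand apart. These rates therefore may not hold for the real arrays. Errors are limma's standard errors, and the number of arrays limits the precision. Promoter windows are RefSeq's (GRCm38.p6).

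The genes and lists were chosen with earlier results of these data known, so no list was tested. Where a gene has several probe sets, the brightest on average stands for it unless others are given. Named are all probe sets of the class II genes and Ciita, all measured genes of the lists of other class II genes, the box complex and the Ciita regulators, the 2 genes with the smallest p of each other list, and the 8 genes nearest in pattern. Brd2, Tap1 and Tap2 (gene order), Ctss, Camp, Cd79b, Csf1r and further list genes given only by level were named after their values were seen.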

Additional observations from a re-analysis of the deposited data

How the results depend on the processing

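Among the class II genes and Ciita 0 probe sets passed in any of the 17 alternative limma settings, with smallest adjusted p values of 0.282 (mean of a gene's probe sets) to 0.78. A mean-variance trend, a robust prior, a replicate block, the brightest probe sets and the threshold of 0.1 leave log2 fold changes unchanged. In these settings no sign could change. Of all 252 single values recomputed 246 kept their sign, and none crossed the threshold. Those that changed sign were H2-Ob (0.0097), H2-Ab1 1451721_a_at (-0.11) and H2-DMa 1459872_x_at (0.058) without WT replicate 1, and Ciita (0.032 with the mean of its probe sets, 0.039 for 1421210_at without N1-IC replicate 1 and 0.0083 for 1447075_at without N1-IC replicate 3). With 1 array left out these ranged from -1.29 to 0.0097 (H2-Ob), -0.11 to 0.43 (H2-Ab1 1451721_a_at), -0.32 to 0.058 (H2-DMa 1459872_x_at), -0.10 to 0.039 (Ciita 1421210_at) and -0.079 to 0.0083 (Ciita 1447075_at). The median log2 fold change over the 16 probe sets was 0.082 to 0.23 with 1 array left out. Over all probe sets the count of calls was 1 with the brightest probe set of each gene, 7 with a mean-variance trend, 10 at an adjusted p under 0.1, and 3 to 8 with 1 array left out, the highest without WT replicate 2. With the replicate number as a block it was 2. Deviations of same-numbered arrays correlated at 0.013, 0.0396 and -0.0769 across probe sets, and those of differently numbered arrays at -0.073 to 0.071. These values show no pairing by number, but with 3 arrays per group they cannot exclude it. The fit with the mean of probe sets tests 18193 genes. For the other settings the cause was not tested. Dim probe sets, such as those of Ciita and H2-Aa 1443783_x_at, limit what these arrays can show.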
